A study of Rattus norvegicus with 15 samples.

Results

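Newborn rat aorta was compared with fetal rat aorta, on 6 of the 15 arrays of the series. The 6 were chosen by title: aorta 3 hours after birth and aorta 19 days post coitum, each hybridised once to each of 3 Affymetrix chip types, A, B and C. Fetal vessels came from fetuses of gestational day 19, taken by Caesarean section from a dam that breathed normal air. Newborn vessels came from pups 3 hours after vaginal birth. Both are the arch and thoracic part of the aorta, cleaned of surrounding tissue in cold Krebs medium, through which gas with 2.5% oxygen (fetus) or 12.5% (newborn) was passed. On chip A, the newborn array's title reads 3 hours post coitum, whereas its description gives a newborn 3 hours after delivery, and the description was followed. The labels give no genotype, strain or sex, no number of animals and no word on pooling. Newborn against fetal thus spans the time from gestational day 19 to delivery, delivery itself, 3 hours of life and another gas mixture. These cannot be told apart, and birth change, rose and fell cover all of them below. The remaining 9 arrays hold the ductus arteriosus as fetal vessel, as newborn vessel, and as the vessel of fetuses whose dams breathed 100% oxygen for 3 hours.

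The aorta is an elastic artery whose wall holds smooth muscle, endothelium, fibroblasts, nerve endings and, on its outer side, fat. At birth the lungs take over gas exchange, oxygen tension and systemic pressure rise, catecholamines and glucocorticoids surge, and the supply of glucose across the placenta gives way to milk fat and to the newborn's own stores. In the rat, brown fat around the large vessels and between the shoulder blades makes heat in this period, through an uncoupled respiratory chain. After birth the aorta remains a conduit, while the neighbouring ductus arteriosus contracts and closes.

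Each state was measured on 1 array per chip, so no test of newborn against fetal aorta is possible, and every value below is a description of these arrays. Signals are the deposited linear intensities, already scaled to a 2% trimmed mean of 500 to 501 on the aorta arrays. Signals under a floor, the pooled median of each chip (149.8, 241.7 and 243 on chips A, B and C), were set to it, and a fold against such a signal is given as a lower bound ("at least"). A ratio is the log2 ratio of newborn over fetal signal. On the aorta arrays, 50.2% to 51.8% of signals exceeded the floor. Where 1 gene had several probe sets above the floor on both arrays, their ratios differed with an SD of 0.32 on the same chip (1299 genes). On different chips the SD was 0.34 (1148 genes). This measures the spread between probe sets. It leaves out the spread between animals and between repeat arrays of a state, and it does not cover ratios against the floor. The 3′ to 5′ ratio of the GAPDH control probe sets ran from 1.28 to 1.54 on the fetal and from 1.30 to 1.58 on the newborn arrays.

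Of 14443 probe sets compared, 363 (2.51%) were higher in newborn aorta by a factor of 2 or more and 360 (2.49%) were lower by as much. Read at the brightest probe set, 577 of 7611 measured genes (7.58%) were higher by at least 1.5-fold and 833 (10.9%) lower, with a median ratio of -0.049 over all of them. By list median, fat cell genes stood highest in newborn aorta, followed by heart muscle, glucocorticoid, smooth muscle and immediate early genes. Sterol synthesis and cell cycle genes stood low, as did the embryonic globins. For probe sets at least 2-fold apart, other probe sets of the same gene went the same way in 289 of 333 pairs for higher ones and in 291 of 332 pairs for lower ones. Fewer were at least 1.5-fold apart the same way, 171 (51.4%) and 190 (57.2%).

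**Figure D1:**
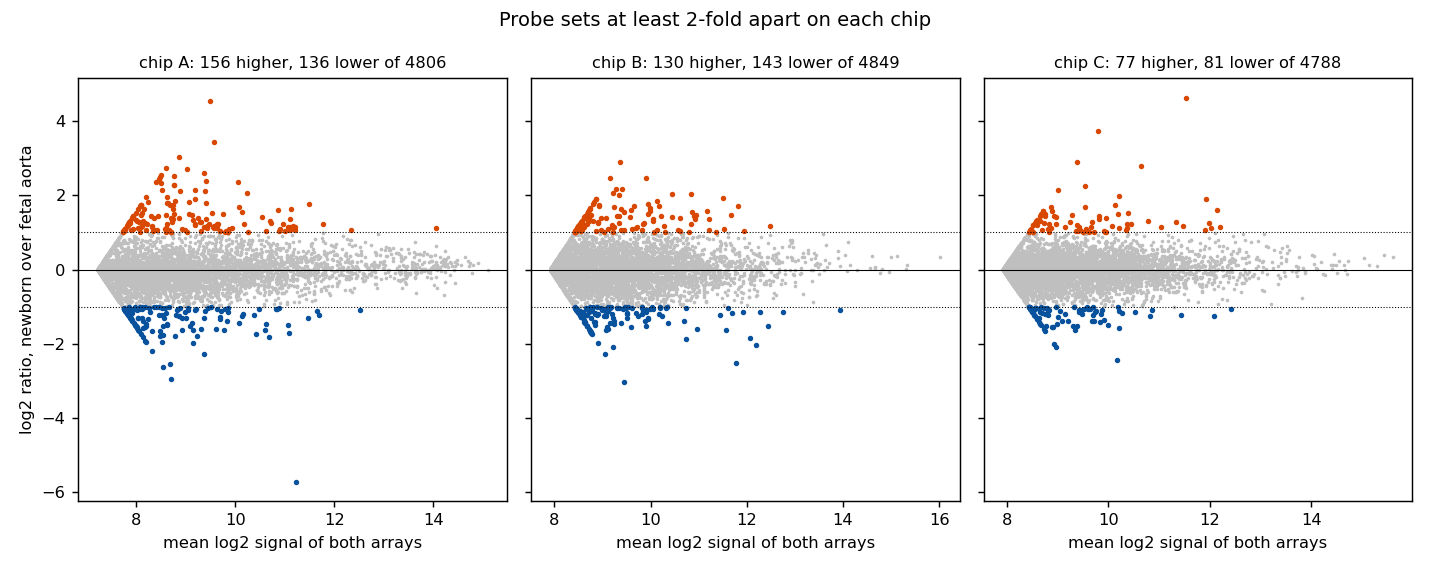
Log2 ratio of newborn over fetal aorta (vertical) against the mean log2 signal of both arrays (horizontal), 1 point per probe set above the floor on at least 1 array, for chips A, B and C. Orange points are 2-fold or more higher, blue points 2-fold or more lower. The slanting edges on the left are probe sets with 1 array at the floor. With signals under the floor set to it, the lowest point is the embryonic globin Hbe1 on chip A, at a ratio of -5.73, and the highest is Car3 on chip C, at 4.64.

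Genes that define fat cells were far higher in newborn aorta. Of 24 listed genes, 19 are on the chips and 14 were measured: 10 were at least 1.5-fold higher and 1 lower, with a median ratio of 1.48. Car3, the carbonic anhydrase abundant in adipocytes and slow muscle fibres, read 592 on the fetal and 14774 on the newborn array, 24.95-fold higher. Fabp4, the fatty acid binding protein of adipocytes, read 123 on the fetal and 3489 on the newborn array, at least 23.3-fold higher. Ucp1, the uncoupling protein that defines brown fat, read 81.8 on the fetal and 876 on the newborn array, at least 5.85-fold higher, and both of its measured probe sets went the same way. The lipid droplet protein Cidea, also typical of brown fat, read 162 on the fetal and 1339 on the newborn array, 8.26-fold higher. Pparg, the nuclear receptor that directs fat cell differentiation, read 146 on the fetal and 1343 on the newborn array, at least 5.56-fold higher. Adipoq, the hormone adiponectin, read 13.9 on the fetal and 1075 on the newborn array, at least 4.42-fold higher. Ucp1, Pparg, Adipoq and Fabp4 lay under the floor in fetal aorta and well over it in newborn aorta, so among the aorta arrays these defining genes were readable on the newborn ones alone.

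The remaining fat cell genes were higher by less or lower. Pnpla2, the lipase that starts the breakdown of stored fat, was 2.96-fold higher. The glycerol channel Aqp7 was 2.64-fold higher. Cfd, the adipocyte complement factor adipsin, was at least 2.09-fold higher, and the insulin-regulated glucose carrier Slc2a4 1.78-fold higher. The hormone-sensitive lipase Lipe had a ratio of 0.28. Leptin (Lep) had -0.18, the adrenergic receptor Adrb3 -0.56 and the droplet coat protein Plin2 -0.59, all with the lower signal in newborn aorta. The list therefore did not move as one, and its median was 0.83 over the genes above the floor on both arrays. The summed signal of the 19 genes was 7019 on the fetal and 30055 on the newborn aorta arrays, against 6779.6 and 8244 in fetal and newborn ductus. Car3 alone read 592 and 14774 on the aorta arrays, so the sum is weighted to this 1 bright gene. Adhering fat was removed at dissection according to the labels, and how much fat each sample held was not measured. In whole vessels, more cells of a type and more RNA per cell cannot be told apart.

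The start of the brown fat gene shows a core promoter. The 250 bases before the start of Ucp1 are printed (chr19:41721422-41721671, minus strand, GRCr8, from RefSeq). Ucp1 was chosen as the only measured fat cell gene with a promoter in the table whose window holds the TATA box letters, TATAAA. They are in capitals at -30 from the start.
Ucp1: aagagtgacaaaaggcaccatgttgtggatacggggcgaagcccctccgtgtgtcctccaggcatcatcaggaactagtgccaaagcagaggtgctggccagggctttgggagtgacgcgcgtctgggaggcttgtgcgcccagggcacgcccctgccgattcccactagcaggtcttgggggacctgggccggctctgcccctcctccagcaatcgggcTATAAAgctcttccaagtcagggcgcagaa
The letters TATAAA, searched on both strands, occur in the same window of 13.1% of 27457 RefSeq promoters and in 7.11% of those of measured genes. Of the 8 measured fat cell genes with a promoter in the table, 1 holds them, Ucp1 itself.

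Genes that store fat were split from genes that make fatty acids. Of 20 measured genes of fat synthesis and storage, 7 were at least 1.5-fold higher and 3 lower. Gpd1, which makes the glycerol backbone of fat, read 36.2 on the fetal and 3258 on the newborn array, at least 13.4-fold higher. Pck1, which supplies the same backbone from pyruvate in adipocytes, read 136 on the fetal and 1829 on the newborn array, at least 7.53-fold higher. Lpl, the lipase that takes fatty acids from blood lipoproteins, read 277 on the fetal and 1223 on the newborn array, 4.42-fold higher with 3 of 3 probe sets. The acyltransferase Dgat2, which completes a fat molecule, was 3.01-fold higher and Agpat2, an earlier step, at least 2.84-fold. The enzymes that build fatty acids went the other way: acetyl-CoA carboxylase (Acaca) was 1.75-fold lower, the elongase Elovl6 1.72-fold lower and the desaturase Scd2 1.76-fold lower, with 7 of 7 probe sets. Fatty acid synthase (Fasn) had a ratio of -0.44 and ATP citrate lyase (Acly) -0.57, neither past 1.5-fold. The median of the whole list was 0.14, and -0.22 over genes above the floor on both arrays, so its sign rests on the genes under the floor in fetal aorta.

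Genes of fatty acid oxidation were higher in newborn aorta. Of 33 measured, 8 were at least 1.5-fold higher and 1 lower, with a median of 0.26. Acsl1, which activates fatty acids, read 214 on the fetal and 742 on the newborn array, 3.46-fold higher with 3 of 3 probe sets. The fatty acid carrier Cd36 was at least 2.62-fold higher. The medium-chain dehydrogenase Acadm was 2.26-fold higher and the long-chain one, Acadl, 1.84-fold higher. Etfb and Etfdh, which pass their electrons on to the respiratory chain, were 2.03-fold and 1.89-fold higher. Acsl3 was 1.59-fold lower.

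The respiratory chain followed in smaller steps across most of the list. Of 68 measured subunits and citric acid cycle enzymes, 56 had a ratio above 0, 15 were at least 1.5-fold higher and 0 lower, with a median of 0.34. Chchd10, a protein of the inner membrane folds of mitochondria, led with 404 on the fetal and 2261 on the newborn array, 5.59-fold higher. Cytochrome c1 (Cyc1), of complex III, read 1441 on the fetal and 2980.4 on the newborn array, 2.07-fold higher. Cox6b1, of cytochrome oxidase, read 3589 on the fetal and 7458 on the newborn array, 2.08-fold higher. The complex I subunits Ndufb3, Ndufv1 and Ndufa8 were 2.07-fold, 1.80-fold and 1.75-fold higher. Idh3a and Sucla2, enzymes of the citric acid cycle, were 2.15-fold and 1.86-fold higher, whereas Idh2 had a ratio of -0.54. The mitochondrial chaperones Hspa9 and Hspd1, which fold imported proteins, were 3.09-fold and 1.70-fold higher. These genes moved with the fat cell genes, whose summed signal is given above, and the part of fat in the result was not tested.

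**Figure D2:**
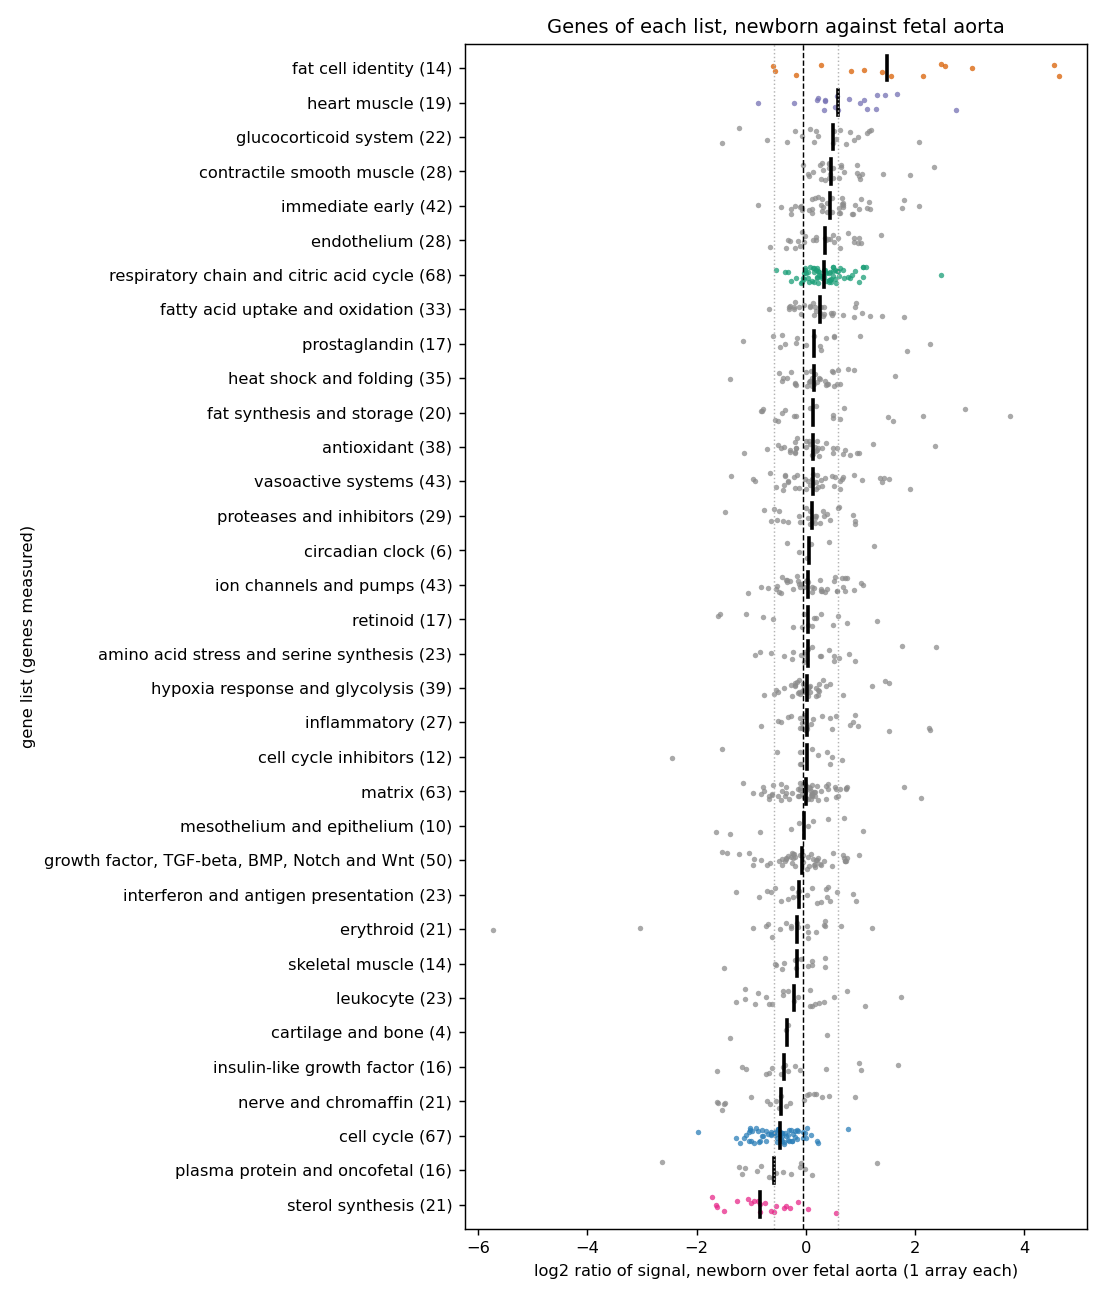
Log2 ratio of newborn over fetal aorta for each measured gene of 34 lists (1 point per gene, number of genes in brackets), ordered by the list median (black bar). The dashed line is the median of all 7611 genes, -0.049, and the dotted lines mark 1.5-fold. The fat cell list is at the top with a median of 1.48 and sterol synthesis at the bottom with -0.84.

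Genes of the contractile apparatus of smooth muscle were higher in newborn aorta. Of 28 measured, 27 had a ratio above 0, 12 were at least 1.5-fold higher and 0 lower, with a median of 0.47. Desmin (Des), the intermediate filament of muscle, read 161 on the fetal and 822 on the newborn array, 5.10-fold higher. Rgs5, which damps G protein signals in vessel wall cells, read 2009 on the fetal and 7567 on the newborn array, 3.77-fold higher. Pdlim3, a protein of the actin anchoring sites, was 2.67-fold higher, and Ppp1r14a, the inhibitor of myosin phosphatase, 2.04-fold higher. Calponin (Cnn1) was 1.56-fold higher. Smooth muscle actin (Acta2), the defining gene of these cells, read 16318 on the fetal and 23050.2 on the newborn array, a ratio of 0.50 with 4 of 4 probe sets above 0. Lmcd1, a LIM domain protein outside the list that is expressed in muscle, read 605 on the fetal and 4179.9 on the newborn array, 6.91-fold higher.

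Heart muscle genes were also higher. Of 19 measured out of 27 on the chips, 10 were at least 1.5-fold higher and 1 lower, with a median of 0.59. Jph2, which ties the calcium store to the cell membrane, read 112 on the fetal and 1007 on the newborn array, at least 6.72-fold higher. In fetal, newborn and oxygen-exposed ductus Jph2 read 845.1, 902.6 and 1039.6, so its fold rests on 1 low array and 1 probe set. Smpx and Sln, small proteins of striated muscle, were at least 3.17-fold and at least 2.72-fold higher. Popdc2 and Ankrd1 were 2.46-fold and 2.45-fold higher. Troponin I (Tnni3) read 466 on the fetal and 1017 on the newborn array, 2.18-fold higher, and the ventricular light chain Myl2 read 203 on the fetal and 423 on the newborn array, 2.09-fold higher. Troponin T (Tnnt2) had a ratio of 0.54, and the slow troponin Tnni1 was 1.84-fold lower. The summed signal of the list was 22204 in fetal and 32432 in newborn aorta, and 46334 in fetal and 24325 in newborn ductus. The thoracic aorta leaves the heart directly, and the part of heart tissue in these values was not tested. Skeletal muscle genes did not follow: of 14 measured, 0 were at least 1.5-fold higher and 1 lower. The lower one was the embryonic myosin Myh3, at 3612 on the fetal and 1276 on the newborn array, 2.83-fold lower with 4 of 4 probe sets.

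Endothelial genes were moderately higher. Of 28 measured, 9 were at least 1.5-fold higher and 1 lower, with a median of 0.36. Thrombomodulin (Thbd), which turns thrombin to anticoagulant action, was 2.61-fold higher at its brightest probe set, with 2 of 3 probe sets above 0. The receptors Tie1 and Tek, which bind or serve the angiopoietins, read 552 on the fetal and 1116 on the newborn array, and 942 on the fetal and 1858 on the newborn array. They were 2.02-fold and 1.97-fold higher, whereas the ligand Angpt2 read 1077 on the fetal and 372 on the newborn array, 2.90-fold lower. The junction proteins Pecam1 and Cldn5 were 1.85-fold and 1.95-fold higher, but cadherin 5 (Cdh5) had a ratio of -0.11 and the connexin Gja5 -0.041. Endothelial nitric oxide synthase (Nos3) had a ratio of -0.66 at its brightest probe set, although 4 of its 5 probe sets were above 0, and the mean over its probe sets was 0.20, so no direction can be given for it.

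Among vasoactive systems, 11 of 43 measured genes were at least 1.5-fold higher and 4 lower. On the nitric oxide side, Nos2, the inducible synthase, read 80.2 on the fetal and 432 on the newborn array, at least 2.88-fold higher, and Gch1, which makes its cofactor, was at least 2.04-fold higher. The enzymes that end the cyclic GMP and cyclic AMP signals split: Pde5a was 1.94-fold lower and Pde4b 2.62-fold higher. The receptor guanylyl cyclase Gucy2c was at least 2.57-fold lower, and the soluble cyclase subunits Gucy1a1 and Gucy1b1 had ratios of -0.33 and -0.16. Of the constrictor systems, endothelin 1 (Edn1) was 1.54-fold higher and its converting enzyme Ece1 had a ratio of 0.19. The angiotensin converting enzyme Ace was 1.85-fold higher. Both angiotensin receptors had the lower signal in newborn aorta: Agtr2, abundant in fetal tissue, read 2428 on the fetal and 1278 on the newborn array, 1.90-fold lower, and Agtr1a had a ratio of -0.40. Rock2, the kinase that sensitises the contractile filaments to calcium, was 2.70-fold higher with 4 of 4 probe sets. Ramp1, the partner of the receptor for the dilator peptide CGRP, was 2.55-fold higher.

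Of 43 measured ion channel and pump genes, 8 were at least 1.5-fold higher and 3 lower, with a median of 0.045. Over all measured genes, the shares were 7.58% higher and 10.9% lower. The calcium pump Atp2a3 was 2.06-fold higher and the calmodulin regulator Pcp4 2.02-fold higher. Kcnmb1, the beta subunit that tunes the large calcium-activated potassium channel of smooth muscle, was 1.85-fold higher. The voltage-gated potassium channel Kcna5 read 311 on the fetal and 79.0 on the newborn array, at least 2.08-fold lower, and the calcium channel subunit Cacna1c had a ratio of -0.48. Of 17 measured prostaglandin genes, 3 were at least 1.5-fold higher and 2 lower, with 9 ratios above 0 and 7 below. Enzymes and receptors were not counted apart. Pla2g2a, which frees fatty acids from phospholipids, read 199 on the fetal and 959 on the newborn array, 4.83-fold higher, Alox15, which oxygenates arachidonic acid, read 232 on the fetal and 836 on the newborn array, 3.60-fold higher, and Ptgis, which makes the dilator prostacyclin, read 2471 on the fetal and 4932 on the newborn array, 2.00-fold higher. The 2 lower genes were the prostacyclin receptor Ptgir, 1.52-fold lower, and the prostaglandin F receptor Ptgfr, 2.22-fold lower. The thromboxane receptor Tbxa2r had a ratio of -0.38 at its brightest probe set. Another probe set of Tbxa2r differed, with a mean log2 change of -1.49 over aorta and ductus.

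Immediate early genes, which cells switch on within minutes of a stimulus, were higher in newborn aorta. Of 42 measured, 19 were at least 1.5-fold higher and 1 lower, with a median of 0.44. Atf3, a stress-induced factor, read 211 on the fetal and 732 on the newborn array, 3.46-fold higher. Cebpb read 233 on the fetal and 788 on the newborn array, 3.38-fold higher, and Egr1 read 1437 on the fetal and 3196 on the newborn array, 2.22-fold higher with 4 of 4 probe sets. Jun was 1.79-fold higher and Fos 1.61-fold higher, with 4 of 4 and 5 of 5 probe sets. The growth factor-like matrix proteins Ccn1 and Ccn2 were 1.60-fold and 1.96-fold higher. Plk2 was 1.84-fold lower. The dissection itself was the same for both states in the labels apart from the gas mixture and the delivery, and its part in these values was not tested.

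Many immediate early genes are driven by serum response factor through a CArG box in the promoter. Klf6, 2.01-fold higher at 656 on the fetal and 1319 on the newborn array, is printed as the gene of this list with the largest ratio among those whose 250 bases before the start hold such a box and that lie outside chromosome 18 (chr17:69458479-69458728, minus strand, GRCr8, RefSeq; box in capitals, starting at -201).
Klf6: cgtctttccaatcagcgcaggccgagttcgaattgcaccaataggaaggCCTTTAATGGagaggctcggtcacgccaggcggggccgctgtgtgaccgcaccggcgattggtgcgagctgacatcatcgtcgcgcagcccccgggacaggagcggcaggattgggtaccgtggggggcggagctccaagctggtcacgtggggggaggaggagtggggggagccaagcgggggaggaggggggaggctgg
A CArG box on either strand was found in 4 of 32 promoters of measured immediate early genes (12.5%) and in 1.31% of 6341 promoters of measured genes. This is a description of letters in the window and no evidence of binding.

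Glucocorticoid-responsive genes overlapped with that group. Of 22 measured, 9 were at least 1.5-fold higher and 3 lower, with a median of 0.50. Klf9, a factor induced directly by the receptor, read 592 on the fetal and 2502 on the newborn array, 4.22-fold higher. Tsc22d3, which mediates anti-inflammatory effects of the hormone, was 1.84-fold higher, and Glul, glutamine synthetase, read 1584 on the fetal and 3522 on the newborn array, 2.22-fold higher with 5 of 5 probe sets. The kinase Sgk1 was 1.66-fold higher, and Fkbp5, the chaperone that limits receptor action, had a ratio of 0.56. Hsd11b1, which reactivates the hormone inside cells, read 539 on the fetal and 231 on the newborn array, 2.34-fold lower. Nupr1, a stress-induced nuclear protein from the amino acid stress list, read 299.9 on the fetal and 1566 on the newborn array, 5.22-fold higher. Bnip3, which is induced by low oxygen, read 1162 on the fetal and 3191 on the newborn array, 2.75-fold higher, although the list of 39 hypoxia and glycolysis genes had a median of 0.025. Per2 read 152 on the fetal and 360.3 on the newborn array, 2.37-fold higher, the one of 6 measured circadian clock genes past 1.5-fold.

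**Figure D3:**
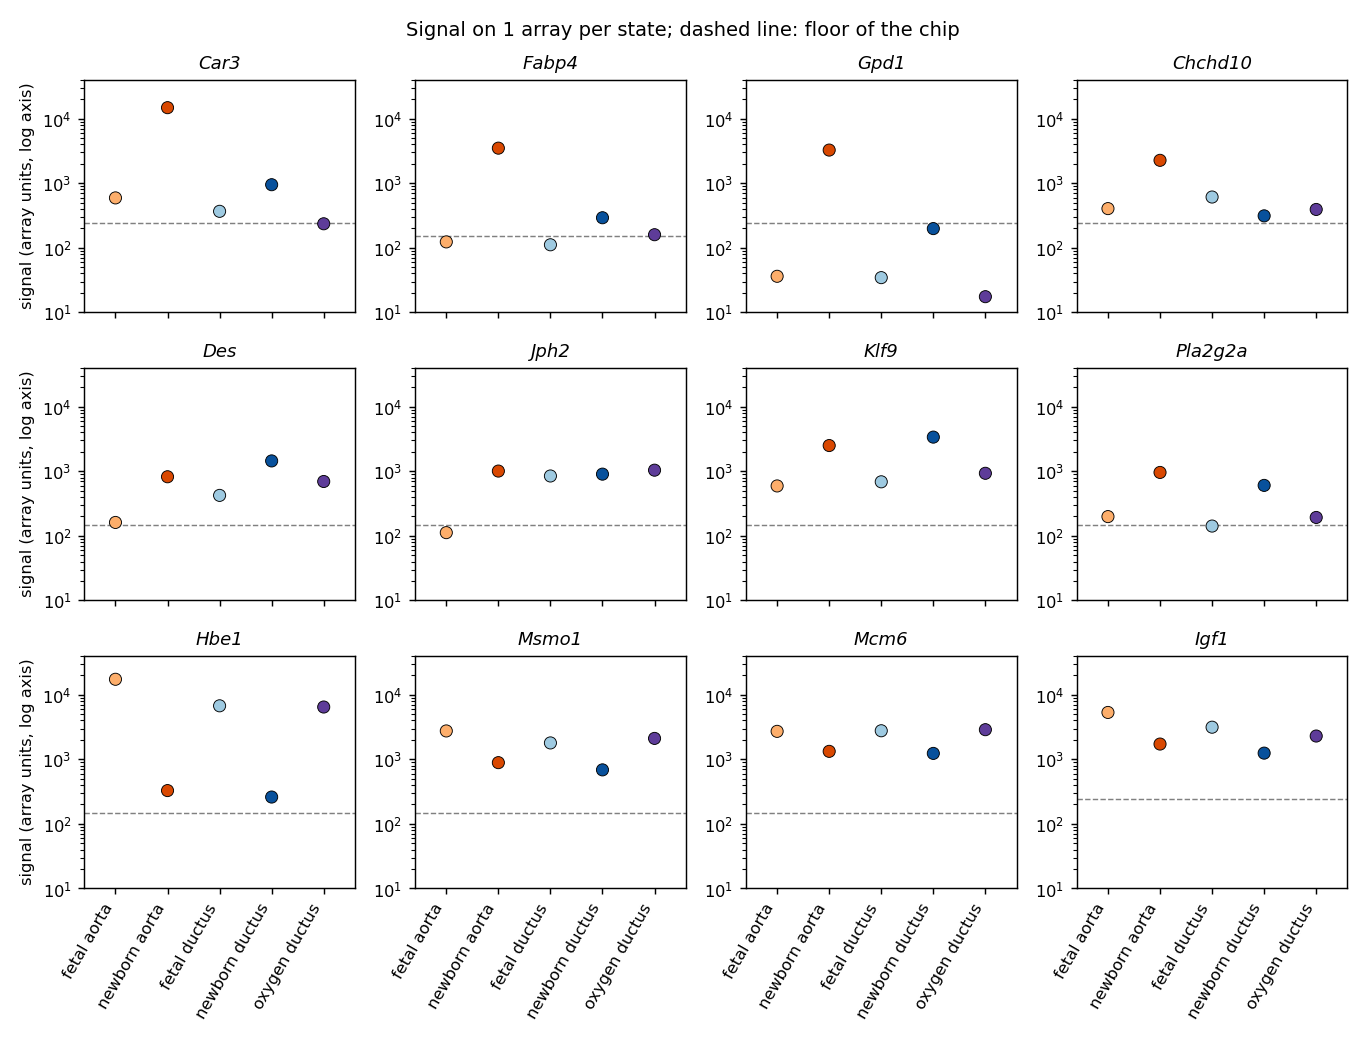
Signal (log axis, array units) of 12 genes on the arrays of the 5 states, 1 array per state, with the floor of the chip dashed. The fat genes Car3, Fabp4 and Gpd1 had their highest signal in newborn aorta, whereas Klf9 and Pla2g2a were high, and Hbe1, Msmo1, Mcm6 and Igf1 low, in newborn aorta and newborn ductus. Levels of different genes are not comparable with each other.

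Genes of DNA replication and mitosis were lower in newborn aorta. Of 67 measured, 62 had a ratio below 0, 25 were at least 1.5-fold lower and 1 higher, with a median of -0.48. Skp2, which marks the inhibitor p27 for destruction, read 951 on the fetal and 174 on the newborn array, at least 3.94-fold lower. Mki67, the proliferation marker, read 4473 on the fetal and 2184 on the newborn array, 2.05-fold lower. Plk1, the mitotic kinase, was 2.32-fold lower, and Aurka 2.04-fold lower. The helicase subunits Mcm6, Mcm5 and Mcm3, which open DNA for replication, were 2.04-fold, 2.01-fold and 1.67-fold lower, while Mcm2 had a ratio of -0.51. Outside the list, the condensin subunit Ncapd2 was 4.24-fold lower and the mitotic kinesin Kif2c at least 3.35-fold lower. The one higher gene was the phosphatase Cdc25b, 1.71-fold higher with 4 of 4 probe sets. Inhibitors of the cycle gave no common direction, with a median of 0.016 over 12 genes. Cdkn1a, which encodes p21, was at least 1.58-fold higher. Cdkn1c, which encodes p57, read 9458 on the fetal and 3264 on the newborn array, 2.90-fold lower at its brightest probe set, with 2 of 3 probe sets below 0. Gas2, a growth arrest gene, was 5.48-fold lower at 2703 on the fetal and 493 on the newborn array.

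Replication genes are classic targets of E2F factors. Mcm6 is printed as the gene of the list with the largest lower ratio among those whose window holds E2F letters (chr13:42404353-42404602, minus strand, GRCr8, RefSeq). It read 2711 on the fetal and 1329 on the newborn array, lower with 3 of 3 probe sets. Capitals mark 2 overlapping matches, starting at -139 and -135.
Mcm6: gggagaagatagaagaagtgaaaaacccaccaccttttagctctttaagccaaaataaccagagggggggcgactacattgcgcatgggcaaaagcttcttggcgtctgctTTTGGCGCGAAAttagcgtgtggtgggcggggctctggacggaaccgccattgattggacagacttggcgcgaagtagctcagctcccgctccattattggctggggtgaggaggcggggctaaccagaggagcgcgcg
The letters searched on both strands were TTTCGCGC, TTTGGCGC and TTCCCGCC, and they occur in 10 of 57 promoters of measured cell cycle genes (17.5%), in 4.32% of those of all measured genes and in 2.31% of all 27457.

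Cholesterol synthesis was lower along the pathway. Of 21 measured genes, 13 were at least 1.5-fold lower and 0 higher, with a median of -0.84. Acat2, the thiolase at the entry of the pathway, read 2508 on the fetal and 758 on the newborn array, 3.31-fold lower with 3 of 3 probe sets. The mevalonate enzymes Mvk and Mvd were at least 1.80-fold and 2.08-fold lower, and Idi1, the next step, 2.00-fold lower. Sqle, the squalene epoxidase and a control point of the pathway, read 1538 on the fetal and 493 on the newborn array, 3.12-fold lower. Cyp51, which removes the first methyl group from lanosterol, was 1.83-fold lower with 5 of 5 probe sets, and Dhcr7, the last step, 2.40-fold lower. Srebf2, the factor that drives the pathway, was 1.92-fold lower. Scarb1, the receptor that takes up cholesterol from lipoproteins, read 992 on the fetal and 168 on the newborn array, 5.89-fold lower. That is its brightest of 3 probe sets, and the newborn signal lay near the floor of 149.8. There the ratios were -2.56 in the aorta and -0.54 in the ductus. At its other probe sets the mean log2 change over both vessels was -0.10 and -0.72. Abca1, which exports cholesterol, had a ratio of 0.55.

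The promoter of Msmo1, a sterol demethylase that read 2750.4 on the fetal and 888 on the newborn array, 3.10-fold lower, carries CCAAT boxes, the site of NF-Y, which works with the sterol factor Srebf2. It is printed as the gene of the list with the largest lower ratio among those with a box in the window (chr16:29746863-29747112, plus strand, GRCr8, RefSeq), with 3 boxes in capitals at -173, -109 and -68.
Msmo1: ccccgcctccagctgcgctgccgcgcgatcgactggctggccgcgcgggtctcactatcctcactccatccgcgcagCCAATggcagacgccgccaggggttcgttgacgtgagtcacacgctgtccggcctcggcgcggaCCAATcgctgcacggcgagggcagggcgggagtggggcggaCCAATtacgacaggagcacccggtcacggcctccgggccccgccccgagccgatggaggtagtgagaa
CCAAT on either strand occurs in 13 of 18 promoters of measured sterol genes (72.2%), and in 36.2% of those of all measured genes. It is not particular to sterol genes: 37 of 57 cell cycle promoters (64.9%) and 15 of 32 immediate early promoters (46.9%) hold it.

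Embryonic globins were far lower in newborn aorta. Hbe1 read 17355 on the fetal and 328 on the newborn array, 52.9-fold lower, and the embryonic alpha-type globin Hbz read 1986 on the fetal and 240.2 on the newborn array, at least 8.22-fold lower. The adult globins did not follow: Hbb had a ratio of 0.18 and Hba-a1 of 0.34, although their probe sets can share near-identical transcripts and were very bright. Alas2, the first enzyme of haem synthesis in red cells, was 1.57-fold higher, whereas the band 3 anion exchanger Slc4a1 was 1.66-fold lower and the globin chaperone Ahsp 1.94-fold lower. In all, 2 of 21 measured red cell genes were at least 1.5-fold higher and 6 lower. Vessels carry blood, and the amount of blood in each sample was not measured.

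Genes of fetal liver and other fetal tissues were lower as well. Of 16 measured plasma protein and oncofetal genes, 8 were at least 1.5-fold lower and 1 higher, with a median of -0.57. Alpha-fetoprotein (Afp) read 935 on the fetal and 122 on the newborn array, at least 6.24-fold lower with 3 of 3 probe sets. The imprinted genes Dlk1, Plagl1 and H19 read lower too: Dlk1 was 2.34-fold lower, Plagl1 2.17-fold and H19 1.60-fold. The higher one was Rbp4, the carrier of retinol in plasma, which adipocytes also make, 2.46-fold higher.

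Growth signals of fetal life were lower in part. In the insulin-like growth factor list, 3 of 16 measured genes were at least 1.5-fold higher and 6 lower, with a median of -0.40. In the larger list of other growth factor pathways, 7 of 50 were higher by that much and 9 lower. Its median of -0.071 lay close to the -0.049 of all genes, with 23 ratios above 0 and 27 below, so that list had no common direction. Insulin-like growth factor 1 (Igf1) read 5319.5 on the fetal and 1724 on the newborn array, 3.09-fold lower with 6 of 6 probe sets, and Igf2 had a ratio of -0.41, with 3 of 4 probe sets below 0. Grb10, an imprinted inhibitor of the receptor, was 2.13-fold lower, and the mRNA binding protein Igf2bp3 2.26-fold lower. The binding proteins split: Igfbp2 read 599.5 on the fetal and 1943 on the newborn array, 3.24-fold higher, and Igfbp4 was 1.65-fold lower. Of single lower genes, pleiotrophin (Ptn), a growth factor of developing vessels, was 2.72-fold lower, the receptor Pdgfra 2.06-fold lower and the Wnt receptor Fzd2 1.95-fold lower. The homeobox gene Meox2, expressed in vessel walls, was 3.11-fold lower. In the retinoid system, 3 of 17 were higher by that much and 5 lower. The synthesising enzyme Aldh1a2 was at least 2.96-fold lower and the binding proteins Crabp1 and Crabp2 at least 2.14-fold and 3.06-fold lower, whereas Cyp26b1, which degrades retinoic acid, was 1.68-fold higher.

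The extracellular matrix list had a median of 0.0024 over 63 genes, close to that of all genes, while single proteins stood apart. Ltbp2, a protein of elastic microfibrils, read 323 on the fetal and 1400.4 on the newborn array, 4.34-fold higher. Col15a1, a basement membrane collagen, read 364 on the fetal and 1266 on the newborn array, 3.48-fold higher. Fibrillin 2 (Fbn2), the fibrillin of early elastic fibres, read 5759 on the fetal and 2608 on the newborn array, 2.21-fold lower. Of the collagens, 2 of 15 were at least 1.5-fold higher and 3 lower. Of the elastic fibre genes, 3 of 19 were higher and 3 lower. Reck, an inhibitor of matrix proteases, read 1709.8 on the fetal and 609.8 on the newborn array, 2.80-fold lower, and Timp3, another, was 1.86-fold higher with 6 of 6 probe sets.

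Nerve and leukocyte lists gave no common direction. Of 21 measured nerve and chromaffin genes, 8 were at least 1.5-fold lower and 1 higher. Tyrosine hydroxylase (Th), the first enzyme of catecholamine synthesis, read 638 on the fetal and 221 on the newborn array, 2.89-fold lower. The axon growth protein Gap43 was 2.80-fold lower and the neurofilament proteins Ina and Nefl at least 3.09-fold and at least 2.81-fold lower. Neuropeptide Y (Npy), the co-transmitter of sympathetic nerves, read 518 on the fetal and 971 on the newborn array, 1.88-fold higher. Of the list, 12 genes lay under the floor on 1 array, and its median moved from -0.46 to 0.061 over genes above the floor on both arrays. Of 23 leukocyte genes, 8 were lower by that much and 3 higher, with 10 ratios above 0 and 13 below. The complement genes C1qa and C1qb of macrophages were 1.91-fold and 2.16-fold lower, and Cd74, of antigen presentation, 2.44-fold lower. S100a9, of neutrophils, read 30.6 on the fetal and 499 on the newborn array, at least 3.33-fold higher, and Pf4, of platelets, 2.12-fold higher. The summed signal of the leukocyte list was 17064 in fetal and 16433 in newborn aorta.

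Smaller lists gave single genes. The glutathione transferase Mgst1, a membrane enzyme against lipid peroxides, read 468 on the fetal and 2421 on the newborn array, 5.17-fold higher, and Txnip, which binds thioredoxin, 2.36-fold higher. Of 38 antioxidant genes, 7 were higher and 2 lower. Complement factor B (Cfb), of the inflammatory list, read 340.4 on the fetal and 1624 on the newborn array, 4.77-fold higher, and 7 of 27 genes of that list were higher against 1 lower. Of 23 interferon genes, 2 were higher and 4 lower. Of the lung and mesothelium markers, the surfactant gene Sftpc read 469 on the fetal and 14.0 on the newborn array, at least 3.13-fold lower, and mesothelin (Msln), of the lining around organs, 674 on the fetal and 1392 on the newborn array, 2.07-fold higher, in a list of 10 measured genes with a median of -0.040. Cartilage was represented by 4 measured genes, of which 1, the collagen Col11a1, was lower, with 1 of its 3 probe sets above 0.

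Outside the lists, the rule for named genes brought up several more. Ceacam12, of a family of cell adhesion molecules, read 184 on the fetal and 1808 on the newborn array, at least 7.48-fold higher. Dysferlin (Dysf), which repairs muscle membranes, read 1167 on the fetal and 206 on the newborn array, at least 4.83-fold lower. In fetal, newborn and oxygen-exposed ductus, Ceacam12 read 1157.8, 1592.3 and 1073.4 and Dysf 1016.5, 1098.5 and 1102. Both folds thus rest on 1 low aorta array and 1 measured probe set. Marcks, a substrate of protein kinase C, read 8189 on the fetal and 2272 on the newborn array, 3.60-fold lower. Tubulin Tubb2b, of growing neurons, was 3.30-fold lower, and Rtn1, also neuronal, 3.89-fold lower. Bud23, a ribosomal RNA methyltransferase, was at least 3.23-fold lower. The kinase Nrk read 572 on the fetal and 179.6 on the newborn array, 3.18-fold lower.

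The same comparison of newborn with fetal vessel in the ductus shows how far the aorta shared its values. Of 7481 genes measured in the ductus, 567 were at least 1.5-fold higher in the newborn (7.58%) and 716 lower (9.57%). Both comparisons use different arrays and share none. Over 7219 genes measured in both vessels, the ratios correlated with Pearson's r of 0.45 and Spearman's rho of 0.41, a description across genes, which are not independent. Among the higher genes, 188 were higher in both vessels, 34.4% of the 546 in the aorta and 34.4% of the 547 in the ductus. Among the lower genes, 250 were shared, 30.8% of 812 and 35.5% of 705. Only 18 genes were higher in newborn aorta and lower in newborn ductus by at least 1.5-fold, and 20 the reverse.

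Fat, heart and mitochondrial genes had other ratios in the ductus than in the aorta. Car3 read 367 in fetal and 948 in newborn ductus, a ratio of 1.37 against 4.64 in the aorta. Ucp1, Pparg, Adipoq, Gpd1 and Pck1 lay under the floor in both ductus states. The heart list had a median of -0.67 in the ductus against 0.59 in the aorta, with 13 of 22 genes lower in newborn ductus. Myl2, higher in newborn aorta, read 1406 in fetal and 248 in newborn ductus, a ratio of -2.51. Tnnt2 had ratios of 0.54 in the aorta and -2.08 in the ductus, where it read 2343 and 554. The respiratory chain list had a median of -0.15 in the ductus, with 5 of 68 genes lower and 0 higher, against 0.34 in the aorta. Chchd10 read 611 and 312 in fetal and newborn ductus. Pnoc, the precursor of the peptide nociceptin, had a ratio of 0.11 in the aorta and -2.75 in the ductus. On the other side, Scarb1, Nrk, Zfp609, Pdlim4 and Ahsp had ratios lower in the aorta by more than 2 log2 units, each at its brightest probe set. Zfp609 read 1617 on the fetal and 562 on the newborn array of the aorta, against 1174 and 1934 in the ductus, and Pdlim4 875 on the fetal and 333 on the newborn array of the aorta, against 509 and 914. With 1 array per state, the difference between the vessels cannot be tested.

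**Figure D4:**
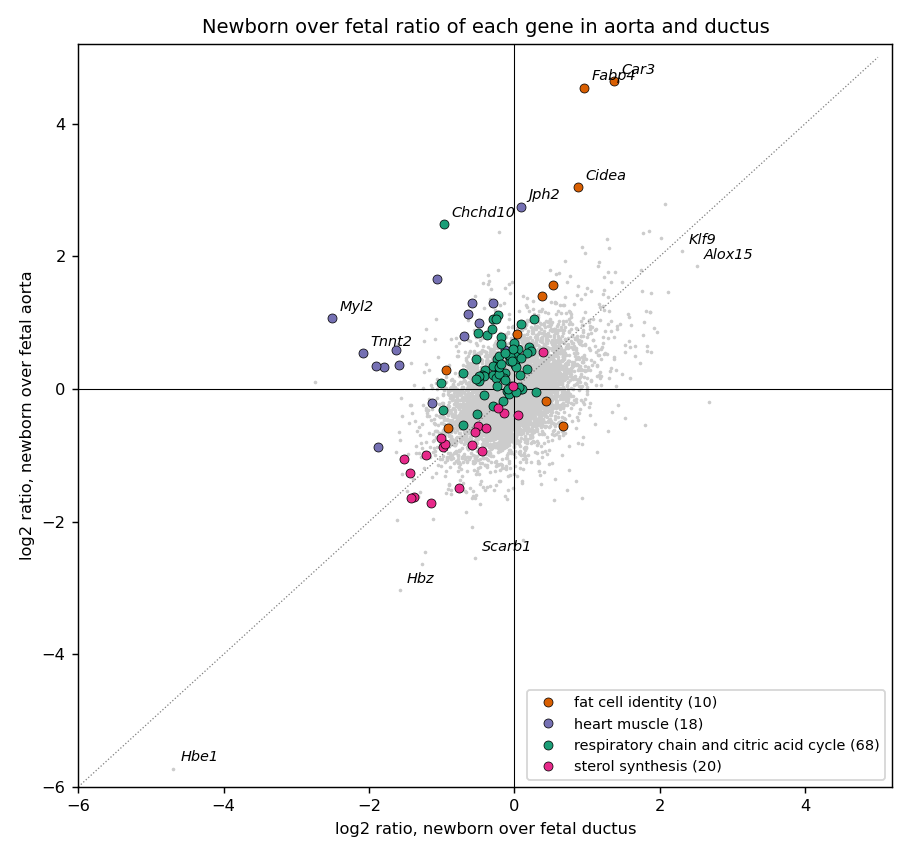
Log2 ratio of newborn over fetal signal in the ductus (horizontal) and the aorta (vertical), 1 point per gene measured in both vessels, with 4 lists in colour and the number of their genes in brackets. Points on the dotted diagonal have the same ratio in both vessels. Sterol genes lie near it, respiratory chain genes above it, heart genes above it and to the left, and the fat genes Car3, Fabp4 and Cidea far above it.

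For cell cycle, sterol, smooth muscle and immediate early genes the list medians lay on the same side of 0 in both vessels. The medians in aorta and ductus were -0.48 and -0.61 for cell cycle, -0.84 and -0.67 for sterol synthesis, 0.47 and 0.37 for smooth muscle, and 0.44 and 0.49 for immediate early genes. Glucocorticoid genes had 0.50 in the aorta and 0.89 in the ductus, where 14 of 21 were at least 1.5-fold higher. Fkbp5 had ratios of 0.56 and 1.88, and Hsd11b1 of -1.22 and 0.76.

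For the birth change common to both vessels a test is possible, with the difference between the vessels as the error. A model with vessel and stage was fitted with limma to 4 arrays per chip, which leaves 1 residual degree of freedom, so the test leans on the spread pooled over all probe sets of a chip. Of 13810 probe sets, 132 were higher and 101 lower at an adjusted p under 0.05 (Benjamini-Hochberg within a chip), and 2575 had an unadjusted p under 0.05. Read at the brightest probe set, 54 of 7362 genes rose (0.733%) and 53 fell (0.72%). With the floor at the 25th percentile, or with no filter on low signals, 0 probe sets passed in limma, with 2718 and 2044 at an unadjusted p under 0.05. The calls thus depend on the floor, and they concern the mean of both vessels, not the aorta alone. The same arrays enter this test and the ratios above, so it is no independent evidence for them.

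Single genes of several lists passed as higher in the mean of both vessels. Lmcd1 rose by 2.43 ± 0.22 (SE; adjusted p = 0.0306) on the log2 scale, and Klf9 by 2.19 ± 0.20 (SE; adjusted p = 0.00633). Alox15 rose by 2.18 ± 0.23 (SE; adjusted p = 0.00779) and Nupr1 by 2.12 ± 0.21 (SE; adjusted p = 0.00779). Pla2g2a rose too, but it lay at the floor in fetal ductus, so no size is given for it. Of 15 prostaglandin genes, Alox15 and Pla2g2a were the 2 that rose, and of 22 glucocorticoid genes 2 rose, Glul and Klf9, and 1 fell, Cdkn1c. Desmin (Des) rose by 2.06 ± 0.22 (SE; adjusted p = 0.00779). Of the immediate early genes tested, 6 of 42 rose and 0 fell: Atf3, Cebpb, Egr1, Junb, Klf9 and Nr4a1. Junb has another measured probe set that was below 0 in the aorta. Of the smooth muscle genes, 4 of 28 rose: Des, Itga8, Pdlim3 and Synpo2. Of the heart muscle genes, 0 of 19 rose and 1 fell in limma, Tnni1, with 3 at an unadjusted p under 0.05. Of the vasoactive genes, Pde4b, Ramp1 and Rock2 rose, 3 of 41. Lpl was the one gene of fat storage that rose, of 16, and of the fat cell list 0 of 10 passed in limma, with 6 at an unadjusted p under 0.05. Of the respiratory chain list 0 of 68 passed in limma, with 3 at an unadjusted p under 0.05.

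Single genes also passed as lower in that mean. Hbe1 had -5.21 ± 0.27 (SE; adjusted p = 0.000431) and Rtn1 -1.54 ± 0.24 (SE; adjusted p = 0.0266). Hbz, Afp, Skp2 and Bud23 fell as well, but each lay at the floor on a newborn array or on both, so the fitted size and its SE are set by the floor and are not given. In all, 8 of 54 genes that rose and 12 of 53 that fell had at least 1 of the 4 arrays at the floor. Of the cell cycle genes tested, 7 of 65 fell: Cdc20, Dnmt1, Mcm5, Mcm6, Mki67, Pold1 and Skp2. Of the sterol genes, 7 of 20 fell: Acat2, Dhcr7, Idi1, Msmo1, Mvd, Sqle and Tm7sf2. Igf1 fell, 1 of 16 genes of its list, as did Fbn2 among 63 matrix genes. Ltbp2 and Col14a1 rose among the matrix genes, Col14a1 with another probe set below 0 in the aorta. Another probe set of Ltbp2 did not pass in limma (0.60, adjusted p = 0.213). In the list of Igf1, Igfbp2 did not pass at its brightest probe set, but another of its probe sets passed as higher in limma (1.17, adjusted p = 0.048). Aldh1a2 and Crabp2 fell among 14 retinoid genes. The thromboxane receptor Tbxa2r did not pass at its brightest probe set, but another of its probe sets passed as lower in limma (adjusted p = 0.0157). These adjusted p-values are limma's, and the SE is that of the mean change of both vessels.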

How the data were processed

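Total RNA of rat vessels in 5 states was hybridised to 3 Affymetrix chip types, 15 arrays in all. The authors deposited linear intensity values per probe set. Per the submitters' processing notes, MAS5 was named for 4 of the 15 arrays, 1 of them an aorta array; for the other 11 the software is not given in the sources used here. Scaling to a common trimmed mean keeps most genes near a ratio of 0 and can hide a shift shared by all genes. Of 26202 probe sets, 18178 carry 1 gene, 391 several and 7633 none in the platform annotation; gene symbols were checked against RefSeq, which holds 18122 of the 18178. Control probe sets were left out. Signals under the pooled median of a chip were set to it before log2. A probe set was compared if it lay above this floor on at least 1 aorta array, and each gene is represented by its brightest probe set.

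Newborn and fetal aorta have no replicate arrays, so their ratios have no test. The change common to aorta and ductus was tested with limma 3.58.1 (R 4.3.3, lmFit and eBayes, vessel as covariate, Benjamini-Hochberg per chip), on probe sets that exceeded the floor on 2 or more of 4 arrays. The fit and the reading of genes were tested on simulated data. Nothing says that arrays came from separate animals, or that aorta and ductus of a state did. The p-values set the mean change against its difference between the vessels, with the spread pooled over probe sets. That difference may be technical, and the spread between animals is not measured. Named genes are the 12 with the largest fold each way (neither aorta signal floored, the larger one past the 75th percentile of its chip, and measured probe sets all of one sign), up to 6 bounds each way, list members at least 1.5-fold apart and defining members or receptors, 6 each way from limma, and 5 each way by the difference between vessels. The members and the 34 gene lists were chosen with earlier results of these data known. Promoter sequences are RefSeq's on GRCr8, and motif letters were searched by exact match. Alternatives were another floor, an offset of 50 with no floor, quantile and loess scaling, other ways of reading a gene, and other limma settings.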

Additional observations from a re-analysis of the deposited data

Results flagged for a closer look

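The genes and lists below went opposite ways from fetal to newborn state in the 2 vessels. With 1 array per state, the difference between vessels was not tested. Values are log2 ratios of newborn over fetal signal, first in the aorta and then in the ductus. Each gene was at least 1.5-fold apart in both. Where a signal lay under the floor the ratio is a bound, as for Smpx and Sftpc in the aorta.

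Myl2 had 1.06 and -2.51, Myh6 0.59 and -1.63, Myl4 0.80 and -0.69, Tnni3 1.13 and -0.64, and Smpx 1.66 and -1.06. The mitochondrial gene Chchd10 had 2.48 and -0.97. The matrix signal Ccn1 had 0.68 and -1.60, and Psat1, of serine synthesis, 0.91 and -1.22. The mesothelial genes Msln and Krt18 had 1.05 and -1.08, and 0.70 and -0.76. All of these were higher in newborn aorta and lower in newborn ductus.

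The reverse held for the following genes. The globin chaperone Ahsp had -0.96 and 1.14, and the surfactant gene Sftpc -1.65 and 0.93. Hsd11b1, which reactivates glucocorticoid, had -1.22 and 0.76. Igfbp4 had -0.72 and 0.94, and the receptor Fgfr2 -0.65 and 0.60, where 2 of its 4 aorta probe sets were above 0. RT1-Da, of antigen presentation, had -0.86 and 0.75. Pdlim4 had -1.39 and 0.84, and Zfp609 -1.52 and 0.72.

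List medians of opposite sign, at least 0.1 from 0 in both vessels, were 0.59 and -0.67 for heart muscle, 0.34 and -0.15 for the respiratory chain, 0.26 and -0.13 for fatty acid oxidation, and 0.14 and -0.43 for fat synthesis and storage. Lists lower in newborn aorta and higher in newborn ductus were insulin-like growth factor at -0.40 and 0.25, nerve and chromaffin at -0.46 and 0.22, leukocyte at -0.21 and 0.30, interferon at -0.13 and 0.25, and erythroid at -0.16 and 0.34. Over genes above the floor on both aorta arrays, some aorta medians changed. They were -0.22 for fat synthesis and storage and 0.061 for nerve and chromaffin, the sign of the ductus. Leukocyte and erythroid had -0.032 and -0.062, within 0.1 of 0. For these lists the opposition thus rests on floored genes. The other lists named here kept their sign, at least 0.1 from 0.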

How the results depend on the processing

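The floor decides how many features are called. With the floor at the 25th percentile, 933 probe sets passed 2-fold as higher and 1097 as lower, and 983 genes passed 1.5-fold as higher and 1454 as lower; at the 60th percentile 223 probe sets were 2-fold lower. Over genes above the floor on both arrays, the list medians were 0.83 for fat cell identity, -0.22 for fat synthesis and storage, which turned its sign, and 0.061 for nerve and chromaffin. With an offset of 50 and no floor they were 1.95 for fat cell identity, -0.86 for nerve and chromaffin and -0.83 for cartilage and bone. With the floor at the 25th percentile they were -0.85 for nerve and chromaffin and -0.43 for mesothelium and epithelium. In the other 237 of 245 recomputed list medians, the value moved by less than the spread between probe sets of a gene. The limma counts were 0 higher and 0 lower with the floor at the 25th percentile (2718 probe sets at an unadjusted p under 0.05) and with no filter (2044), and 315 higher and 217 lower with an intensity trend in eBayes. Of 320 single genes followed, 122 moved by more than that spread under some alternative, and 1, Nos3, turned its sign, to 0.20 as the mean of its probe sets. No paired analysis was possible because each state has 1 array per chip and the labels give no replicate numbers. Leaving out a replicate was not possible for the same reason. Low signals limit the precision, since folds against the floor are bounds only.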

Other observations

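Chaperones and stress enzymes gave a mixed picture in newborn aorta. Of 35 measured heat shock and folding genes, 4 were at least 1.5-fold higher and 1 lower, with a median ratio of 0.15. Herpud1, which helps to clear misfolded proteins from the endoplasmic reticulum, read 638 on the fetal and 1175 on the newborn array, 1.84-fold higher, and Pdia4, a disulfide isomerase of that compartment, read 1536 on the fetal and 588 on the newborn array, 2.61-fold lower. Of 23 genes of amino acid stress and serine synthesis, 5 were higher and 3 lower: Atf5, a stress factor, was 1.73-fold higher and Shmt2, the mitochondrial serine hydroxymethyltransferase, 1.90-fold lower. Of 29 proteases and their inhibitors, 5 were higher and 3 lower. The matrix protease Adamts1 was 1.83-fold higher, and Ctsk, cathepsin K, 1.55-fold lower.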
